A study of Mus musculus with 6 samples.

Results

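The chemokine system was described in mouse skin sampled as epidermis, in which transcripts of deeper tissue were also counted. Members were all rows of the deposited gene table whose symbol begins with Ccl, Cxcl, Ccr or Cxcr and a number. Cx3cl1, Cx3cr1, Xcl1, Xcr1 and the atypical receptors Ackr1 to Ackr4 were included too. The rule found 67 of the 47729 rows of the table, and it used symbols only. These rows carry 61 symbols, because Ccl19, Ccl21a, Ccl21b, Ccl21c and Ccl27a have more than 1 row. By kind, 45 rows are ligands, 18 are signalling receptors and 4 are atypical receptors. The platelet chemokines Pf4 and Ppbp fall outside the naming rule and are given with the pathway genes.

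The libraries came from wild-type C57BL/6 mice, 3 from skin given AKBA gel and 3 from skin given control gel. AKBA usually stands for acetyl-11-keto-β-boswellic acid, which is found in frankincense resin and is known as an inhibitor of 5-lipoxygenase. All groups share the strain and the genotype. Age, dose, time and any other treatment of the skin are not given. Control libraries are also labelled IMQ, an abbreviation left unexplained there, and the values below compare the libraries as labelled. No label says whether libraries are different mice, and p-values therefore cover only the variation among these 6 libraries, which could be technical.

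Chemokines are small secreted proteins that draw leukocytes along a concentration gradient, and they act through receptors coupled to inhibitory G proteins. Ligands with a CXC motif and the ELR letters before it, such as Cxcl1, mainly draw neutrophils through Cxcr2. Many CC ligands draw monocytes, T cells or dendritic cells. Atypical receptors bind chemokines without G protein signalling and remove or move them. In skin, keratinocytes can make chemokines such as Cxcl1, Ccl20 and Ccl27a, while resident macrophages, Langerhans cells, endothelium and fibroblasts make others.

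Several of the genes with the most negative fold changes under AKBA gel lie in the same cluster. Cxcl5 (90759360 to 90761624), Cxcl3 (90786103 to 90789600), Cxcl1 (90891241 to 90893115) and Cxcl2 (90903871 to 90905938) lie within it on the plus strand of chromosome 5 of GRCm38, with Cxcl15, which had no count, between Cxcl3 and Cxcl1. The 250 bases before the RefSeq start site (table of build GRCm38.p6) are shown for Cxcl1, Cxcl2 and Cxcl3, which share a κB-type match, and for Ccl12, a monocyte chemokine of chromosome 11 that has none in this window. Capitals mark every match to GGGNNNTTCC, read on both strands, and neighbouring matches run together where they overlap.
Cxcl1, chr5:90890995-90891244, plus strand: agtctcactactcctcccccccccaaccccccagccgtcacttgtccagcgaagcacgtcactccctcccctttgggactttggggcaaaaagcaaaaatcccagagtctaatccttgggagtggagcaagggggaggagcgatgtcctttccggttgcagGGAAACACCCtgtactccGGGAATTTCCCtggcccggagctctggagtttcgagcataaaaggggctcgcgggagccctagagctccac
Cxcl2, chr5:90903649-90903898, plus strand: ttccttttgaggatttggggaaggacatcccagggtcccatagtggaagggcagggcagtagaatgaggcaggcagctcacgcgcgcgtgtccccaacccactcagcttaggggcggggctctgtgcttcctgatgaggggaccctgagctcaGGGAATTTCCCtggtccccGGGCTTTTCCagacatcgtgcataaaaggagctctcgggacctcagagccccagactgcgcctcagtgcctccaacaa
Cxcl3, chr5:90785851-90786100, plus strand: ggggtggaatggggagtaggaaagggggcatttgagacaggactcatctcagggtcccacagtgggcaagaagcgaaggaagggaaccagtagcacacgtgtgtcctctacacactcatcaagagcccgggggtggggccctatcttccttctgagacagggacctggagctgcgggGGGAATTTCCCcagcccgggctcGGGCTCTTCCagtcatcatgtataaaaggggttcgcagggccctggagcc
Ccl12, chr11:82101595-82101844, plus strand: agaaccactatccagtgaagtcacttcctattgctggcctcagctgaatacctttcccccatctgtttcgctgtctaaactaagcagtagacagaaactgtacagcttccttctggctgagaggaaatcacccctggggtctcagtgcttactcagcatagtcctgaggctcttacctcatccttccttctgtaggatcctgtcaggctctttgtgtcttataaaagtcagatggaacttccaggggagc
All 3 CXC promoters hold the same letters GGGAATTTCC, which begin at -71 from the start site in Cxcl1, at -97 in Cxcl2 and at -73 in Cxcl3. Cxcl1 has a further match on the minus strand, read on the plus strand as GGAAACACCC, at -89. Cxcl2 and Cxcl3 each have a further match on the plus strand, GGGCTTTTCC in Cxcl2 and GGGCTCTTCC in Cxcl3. In the 300-base windows of the table (250 bases before to 50 after the start), 43 members had an entry, with 47 promoters between them. The motif was found in 9 of these 47 (19.1%), each of a different member, against 5.56% of all 32851 promoters. The members were Cxcl1, Cxcl2, Cxcl3, Cxcl10, Ccl1, Ccl9, Ccl20, Ccr3 and Ccr6. The AP-1 motif TGANTCA, which reads the same on both strands, was found in 8 of the 47 (17%) and in 7.81% of all promoters. Its 8 members were Cxcl9, Cxcl10, Ccl9, Ccl27a, Ccl27b, Ccl28, Ccr3 and Ccr4. A match is a description of letters and no evidence of binding.

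The libraries held 20859697, 19066045 and 21992741 counts under AKBA gel (replicates 1 to 3) and 20568296, 22217153 and 22760432 under control gel. At this depth 3 counts correspond to 0.128 to 0.159 CPM (counts per library size, scaled with TMM), a floor for counting error only. Chemokines and their receptors took 0.0572% to 0.0675% of the counts of an AKBA library and 0.0666% to 0.0814% of those of a control library. The keratinocyte markers Krt1, Krt5, Krt10, Krt14, Krt15 and Trp63 were present at a summed 41287 to 61884 CPM. Fibroblast markers were at 18754 to 35288 CPM and skeletal muscle markers at 2826 to 6176 CPM in the same libraries, so transcripts of tissue below the epidermis were counted too.

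By level per transcript length, the most abundant member was Ccl8, which in mouse acts on Ccr8 and draws T cells, with a mean of 147 FPKM (the deposited unit, fragments scaled to transcript length and library size) over the 6 libraries. Ccl6, a rodent chemokine of macrophages, followed at 34.0 FPKM. Cxcl14, made at steady state by epithelium, was at 30.8 FPKM, and Cxcl12, the ligand of Cxcr4, at 19.7 FPKM. Ccl21a, a ligand of Ccr7, was at 18.2 FPKM, Cxcl16 at 12, Ccl9 at 9.72 and Ccl11 at 8.95 FPKM. Among receptors the highest were Ackr3 at 8.21, Cxcr6 at 8.17, Cxcr4 at 6.83 and Ccr2 at 6.14 FPKM, with Cxcl13 between the last pair at 6.45 FPKM. Many neighbours in this order do not differ beyond the spread of their libraries, as the plot of levels shows, whereas Ccl8 was above all other members in each library. No count was found in any library for Cxcl15, 1 of the rows of Ccl19 and 1 of the rows of Ccl27a. A further 20 rows had counts too low for testing in the main edgeR fit.

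**Figure D1:**
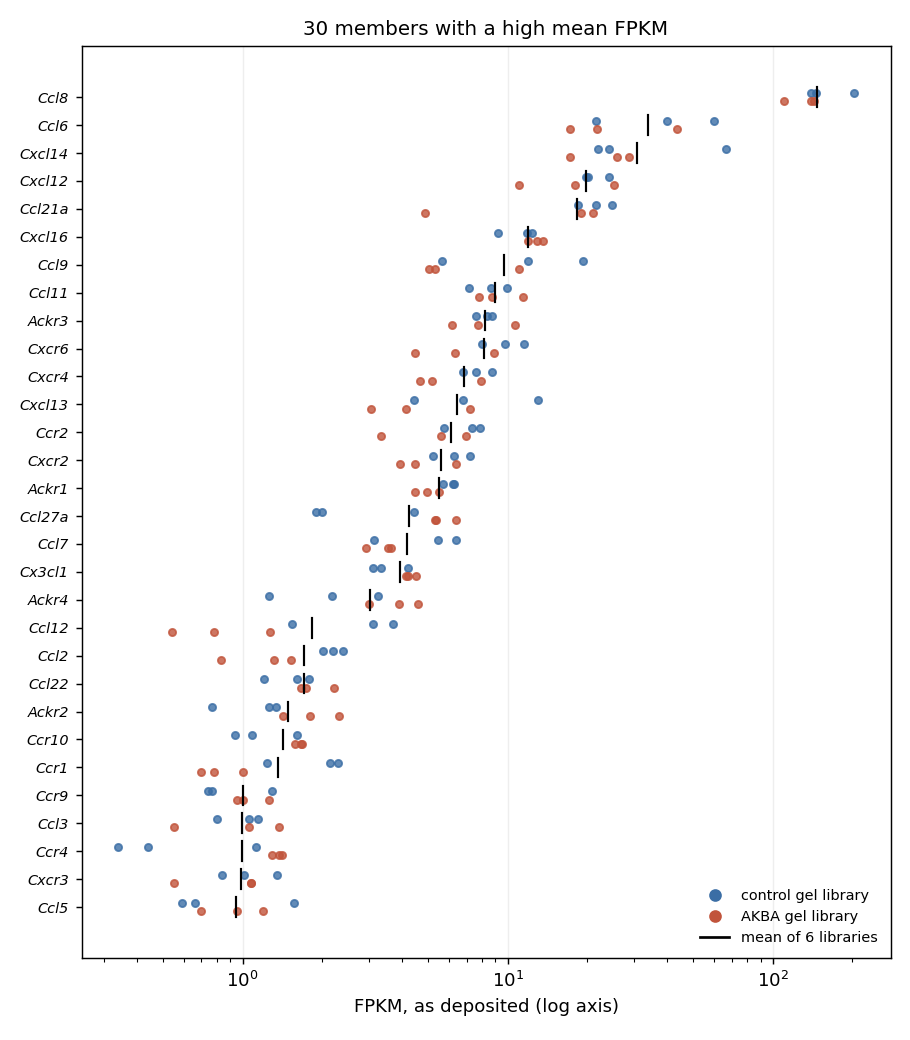
Deposited FPKM (log axis) of 30 members with a high mean, with 1 point for each library and a bar at the mean of the 6 libraries. Ccl8 stands alone at the top with a mean of 147 FPKM, and control and AKBA points of most genes lie among each other.

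The comparison asks which chemokines and receptors differed between AKBA gel and control gel. None of the 44 members that passed the low-count filter rose or fell at an adjusted p under 0.05 in edgeR, whose smallest adjusted p among them was 0.331, and the same test called 0% of the 17023 genes tested as lower and 0% as higher. At an unadjusted p under 0.05, 7 members were lower under AKBA gel (15.9% of those tested, against 7.01% of all genes) and 4 were higher (9.09%, against 6.45%). The lower members included Cxcl1, Ccl2, Ccl12, Ccr1, Ccr7 and Cxcr6, and the higher ones were Ccl27a, Ccr4, Ackr2 and Ackr4. DESeq2 called Cxcl1 and Ccr1 as lower at an adjusted p under 0.05 and no member as higher, with 1.17% of all genes called lower and 0.513% higher by that tool. The authors' deposited table marks 5 members as significantly lower, Cxcl1, Cxcl3, Cxcl5, Ccl12 and Ccr1, and 0 as higher, against 0.331% and 0.241% of all 47729 rows.

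Of the 44 tested members, 27 had a negative and 17 a positive log2 fold change (AKBA gel relative to control gel). Their median was -0.19, against 0.0037 over all genes tested, and it was -0.015 without control library 1. The 25 tested ligand rows had a median of -0.29, the 15 signalling receptors -0.26 and the 4 atypical receptors 0.34. In 6 members all AKBA libraries lay below all control libraries (9.1% of all genes did so) and in 4 they lay above (9.28%). These shares are close to the background for the higher direction, and 3 libraries against 3 cannot give an exact permutation p below 0.10 for a single gene. When each library was left out in turn, Cxcl1, Ccl2, Ccl12, Ccr1 and Ccl27a kept an unadjusted edgeR p under 0.05 in all 6 cases. Cxcr6, Ccr7, Ccr4, Ackr2 and Ackr4 did not, as given with each gene, and the number of higher members was 1 without AKBA library 1, AKBA library 2 or control library 2, and 2 without control library 3.

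**Figure D2:**
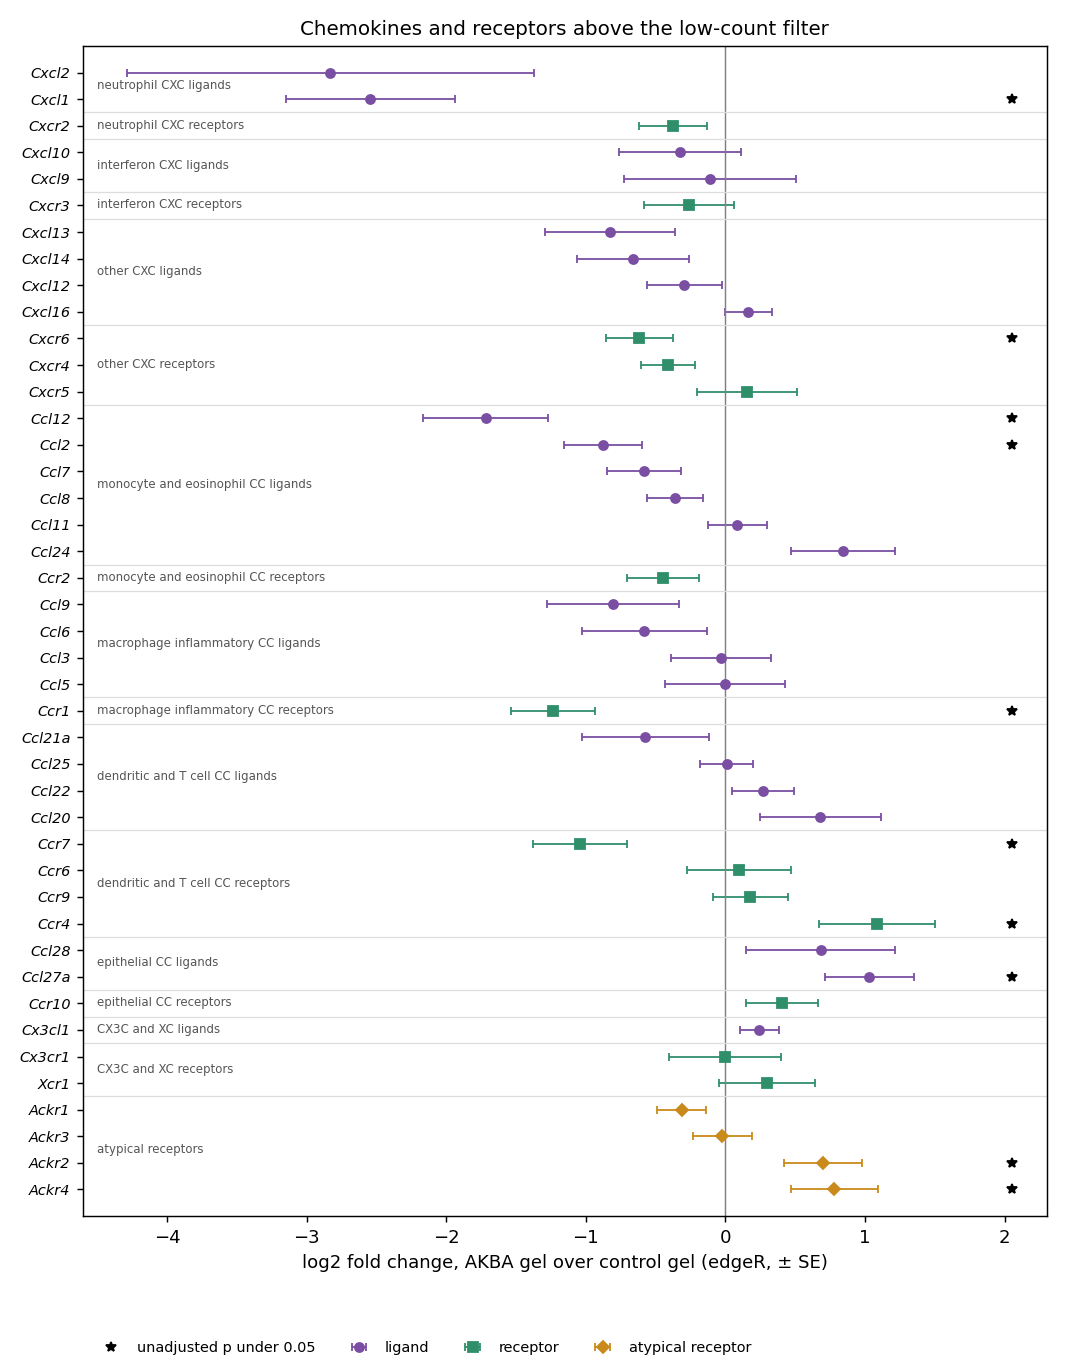
Log2 fold change, AKBA gel relative to control gel (edgeR, bars show ± SE) for 43 of the tested members, grouped by role, with stars at an unadjusted p under 0.05. Points of neutrophil, monocyte and macrophage ligands lie mostly left of 0, and those of epithelial ligands and of Ackr2 and Ackr4 right of it.

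Neutrophil-attracting ligands had the most negative log2 fold changes of the tested members. Cxcl1, the main mouse ligand of Cxcr2, was counted 12, 3 and 12 times under AKBA gel and 21, 91 and 53 times under control gel. In CPM these were 0.589, 0.159 and 0.511 against 1, 3.97 and 2.54. All 3 AKBA libraries were below all control libraries, and control library 2 was the highest. The means were 0.420 ± 0.229 and 2.50 ± 1.49 CPM (SD, n = 3). The fitted log2 fold change was -2.54 ± 0.61 (SE), which is 5.83-fold lower, with an unadjusted p of 0.00345 and an adjusted p of 0.331 in edgeR, and with an adjusted p of 0.0099 in DESeq2, by which Cxcl1 fell. In the authors' deposited table Cxcl1 had a log2 fold change of -2.12 and an adjusted p of 0.0027.

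Cxcl2, Cxcl3 and Cxcl5 of the same cluster act on the same receptor and were carried by few libraries. Cxcl2 had 3, 0 and 12 counts under AKBA gel and 0, 102 and 12 under control gel. Its groups overlapped, since control library 1 had no count, and its log2 fold change of -2.83 ± 1.46 had an unadjusted edgeR p of 0.09. Cxcl3 was not counted under AKBA gel and had 0, 18 and 9 counts under control gel, and it was too low for testing. Cxcl5 had 0, 0 and 1 counts under AKBA gel and 0, 81 and 5 under control gel, and was also too low for testing in edgeR. For both, the counts of control library 2 were the highest and those of control library 1 were 0. The authors' deposited table gives Cxcl3 a log2 fold change of -1.11 (adjusted p 0.0181) and Cxcl5 -2.91 (adjusted p 0.0200). DESeq2 gave Cxcl5 an adjusted p of 0.341. Summed over the 5 neutrophil ligands, there were 15, 3 and 25 counts under AKBA gel and 21, 292 and 79 under control gel, so control library 1 lay within the AKBA range.

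Cxcr2, the receptor of these ligands, was at 19.9, 13.8 and 11.2 CPM under AKBA gel and at 18.8, 15.5 and 24.1 CPM under control gel. The groups overlapped, and the log2 fold change was -0.37 ± 0.25 with an unadjusted edgeR p of 0.167. Cxcr1 had at most 2 counts in a library.

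Markers of neutrophils gave the following values in the same libraries. Ly6g, which defines mouse neutrophils, had no count in any library, and Retnlg and Camp were at most at 1.02 CPM. S100a8 and S100a9, which keratinocytes can make too, were highest in control library 3, with S100a9 at 323, 118 and 451 CPM under AKBA gel and 366, 641 and 1989 CPM under control gel (log2 fold change -1.75, unadjusted edgeR p 0.0366). Csf3r, the receptor for the growth factor of granulocytes, was at 9.99 to 20.8 CPM under AKBA gel and 22.8 to 25.1 CPM under control gel. All 4 tested markers of the 6 listed were negative, and the summed level was 296 to 830 against 688 to 3365 CPM. Their part in the values of the neutrophil ligands was not tested, and in bulk RNA fewer cells of a type and less RNA per cell cannot be told apart.

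**Figure D3:**
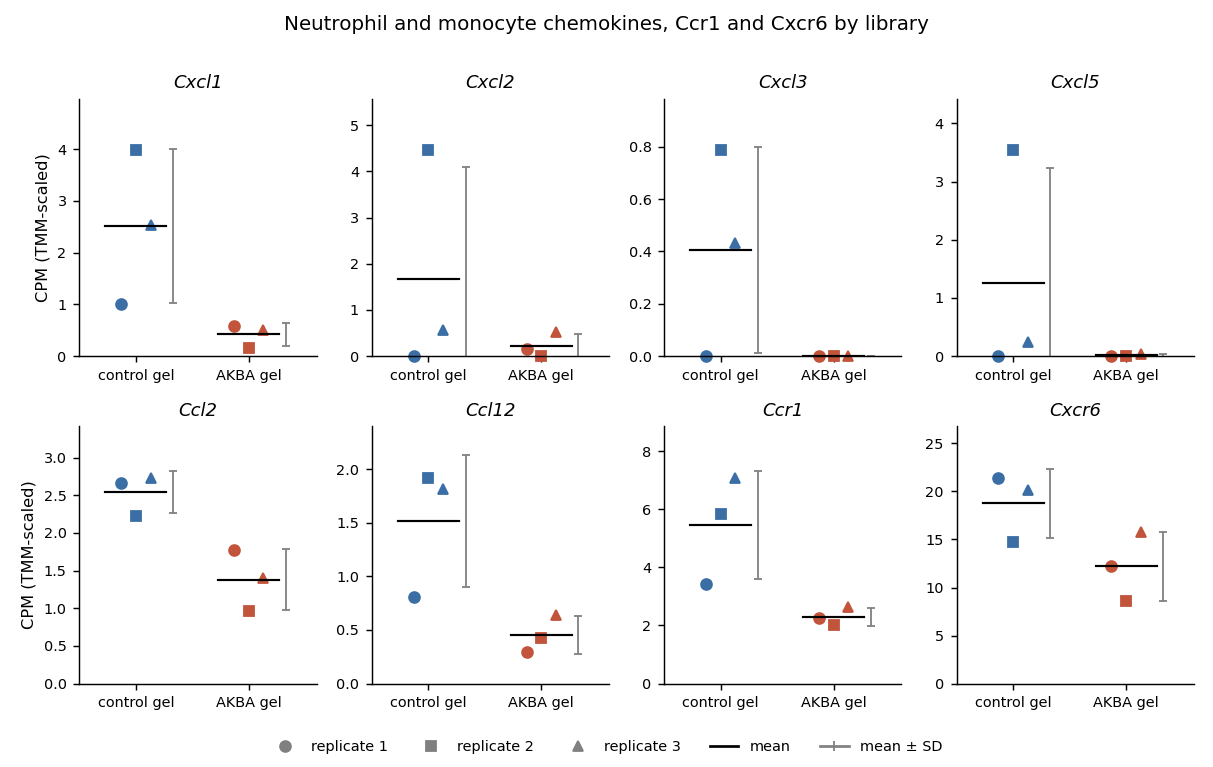
TMM-scaled CPM of Cxcl1, Cxcl2, Cxcl3, Cxcl5, Ccl2, Ccl12, Ccr1 and Cxcr6 in each library, with the mean as a line and the SD as a bar drawn from 0 upward at most. The groups do not overlap for Cxcl1, Ccl2, Ccl12 and Ccr1, while Cxcl2, Cxcl3 and Cxcl5 are high mainly in control library 2.

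Of the monocyte-attracting ligands of the chromosome 11 cluster, Ccl2 and Ccl12 were lower at an unadjusted p under 0.05, and the others were not. Ccl12, a rodent ligand of Ccr2 (chromosome 11, 82101845 to 82103400), was at 0.294, 0.425 and 0.639 CPM under AKBA gel and at 0.809, 1.92 and 1.82 CPM under control gel, with no overlap. The means were 0.453 ± 0.174 and 1.52 ± 0.615 CPM, and the log2 fold change was -1.72 ± 0.45 with an unadjusted edgeR p of 0.00542. The authors' deposited table lists it at -1.58 with an adjusted p of 0.0375, and DESeq2 gave an adjusted p of 0.078.

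Ccl2, the principal monocyte attractant through Ccr2 (chromosome 11, 82035571 to 82037453), was at 1.77, 0.957 and 1.41 CPM under AKBA gel and at 2.67, 2.23 and 2.73 CPM under control gel. Again no AKBA library reached a control library. The log2 fold change was -0.88 ± 0.28 with an unadjusted edgeR p of 0.0153. Ccl7, the ligand of Ccr2 that lies between Ccl2 and Ccl11, was at 2.40, 2.87 and 2.73 against 4.29, 4.98 and 2.73 CPM (log2 fold change -0.58 ± 0.27, unadjusted edgeR p 0.062), and control library 3 was within the AKBA range.

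Ccl8, the abundant member of the same cluster, was at 57.8, 72.1 and 68.4 CPM under AKBA gel and at 72.8, 69.2 and 113 CPM under control gel. Its log2 fold change was -0.36 ± 0.20, and -0.10 without control library 3, which was the highest. Its receptor Ccr8 had 3, 3 and 17 counts under AKBA gel and 7, 9 and 8 under control gel. The eotaxins, ligands of Ccr3 on eosinophils, had positive values that did not pass the test. Ccl11 had a log2 fold change of 0.09 ± 0.21 and Ccl24 one of 0.84 ± 0.37 with an unadjusted edgeR p of 0.0547. Over the 12 ligand rows of chromosome 11, 10 were tested, 8 had a negative value, and the median was -0.47.

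The receptor of the monocyte ligands, Ccr2, was at 36.7, 21.5 and 41.6 CPM under AKBA gel and at 45.9, 35.7 and 54.9 CPM under control gel (log2 fold change -0.45 ± 0.26, unadjusted edgeR p 0.122), with overlapping groups. Ccr3 had 6, 5 and 5 counts under AKBA gel and 37, 21 and 6 under control gel, and was below the filter of the main edgeR fit. DESeq2 gave it a log2 fold change of -1.95 (adjusted p 0.189), and the authors' deposited table gives -1.15 (adjusted p 0.103). Without AKBA library 1, AKBA library 2 or control library 3, Ccr3 was tested in edgeR and had an unadjusted p under 0.05. The counts of Ccr3 separated control libraries 1 and 2 from the rest.

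Ccr1, a receptor of macrophage inflammatory ligands on monocytes and macrophages, was lower without overlap. Ccr1 (chromosome 9, 123962124 to 123968692) was at 2.26, 2.02 and 2.64 CPM under AKBA gel and at 3.43, 5.85 and 7.09 CPM under control gel. Control library 1 was the control library nearest to the AKBA group. The means were 2.31 ± 0.314 and 5.46 ± 1.86 CPM, and the log2 fold change of -1.24 ± 0.30 had an unadjusted p of 0.00377 in edgeR. Ccr1 fell by DESeq2, with an adjusted p of 0.0228, and the authors' deposited table lists it at -1.11 with an adjusted p of 0.0301.

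The 4 tested macrophage inflammatory ligands overlapped between the groups. Ccl6 was at 39.8, 79.0 and 28.9 CPM under AKBA gel and at 37.9, 104 and 78.5 CPM under control gel. Its log2 fold change was -0.58 ± 0.45, but -0.24 without control library 2 and -1.10 without AKBA library 2. Ccl9, which lies beside Ccl6 on chromosome 11 and likewise acts on Ccr1, was at 16.5, 34.1 and 14.4 against 16.9, 56.9 and 39.7 CPM (-0.81 ± 0.47, -0.39 without control library 2 and -1.29 without AKBA library 2). Both genes were highest in control library 2 and, among the AKBA libraries, in replicate 2. The ratio of Ccl6 to Ccl9 in FPKM stayed between 3.11 and 4.08 in the 6 libraries. Ccl3 was at 0.746 ± 0.288 against 0.771 ± 0.0940 CPM and Ccl5 at 0.903 ± 0.245 against 0.903 ± 0.496 CPM. Ccl4, below the filter, had 3, 2 and 5 counts under AKBA gel and 5, 24 and 5 under control gel. In CPM these were 0.147, 0.106 and 0.213 against 0.238, 1.05 and 0.240. Its groups were separated only by the scaling, since AKBA library 3 and control libraries 1 and 3 each had 5 counts.

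**Figure D4:**
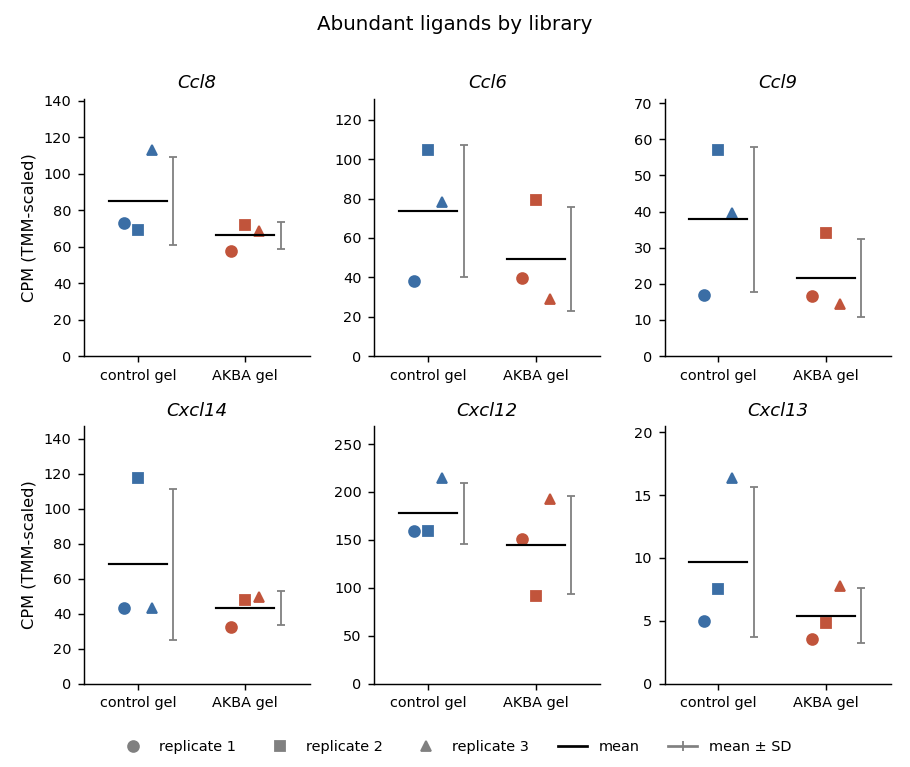
TMM-scaled CPM of the abundant ligands Ccl8, Ccl6, Ccl9, Cxcl14 and Cxcl12 and of Cxcl13 in each library, with mean and SD. The groups overlap in all 6 panels, and single control libraries stand out, replicate 2 for Cxcl14 and replicate 3 for Cxcl13.

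Macrophage and leukocyte markers lay in the same direction as Ccr1. Ptprc, which encodes the leukocyte antigen CD45, was at 58.4, 48.6 and 74.3 CPM under AKBA gel and at 91.6, 75.8 and 85.1 CPM under control gel (log2 fold change -0.48, unadjusted edgeR p 0.0217). All 6 macrophage and monocyte markers had negative values with a median of -0.43, and their summed level was 1234 to 1428 CPM against 1425 to 1998 CPM. Cd163 (-0.79), Mrc1 (-0.71) and Csf1r (-0.51) had an unadjusted p under 0.05. The blood endothelial genes Pecam1 (-0.50) and Cdh5 (-0.52) did too, and all 4 genes of that list were negative, with sums of 159 to 289 CPM under AKBA gel and 275 to 374 CPM under control gel. Their part in the values of Ccr1, Ccl2 and Ccl12 was not tested.

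Interferon-induced ligands of Cxcr3, the receptor of effector T cells, showed no separation. Cxcl9 was at 0.687, 2.39 and 3.20 CPM under AKBA gel and at 3.95, 1.75 and 1.10 CPM under control gel (log2 fold change -0.11 ± 0.62). Cxcl10 was at 1.42, 1.59 and 1.28 against 2.90, 1.66 and 0.814 CPM (-0.33 ± 0.44). Cxcl11, listed in GENCODE M21 as a polymorphic pseudogene, had 1 to 6 counts in a library. Of its 3794 exonic bases, 1582 overlap Gm2673 on the other strand. Cxcr3 itself had a value of -0.26 ± 0.32. Control library 1, which had the fewest neutrophil ligand counts of its group, had the most Cxcl9 and Cxcl10.

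The remaining CXC ligands and receptors are those of homeostasis and of tissue T cells. Cxcl12 was at 151, 91.1 and 193 CPM under AKBA gel and at 159, 160 and 215 CPM under control gel, with a log2 fold change of -0.29 ± 0.27 that became -0.049 without AKBA library 2. Its receptor Cxcr4 had -0.41 ± 0.19 (unadjusted edgeR p 0.0676), and Ackr3, which clears Cxcl12, had -0.02 ± 0.21. Cxcl14 was at 32.0, 48.0 and 49.2 against 43.2, 118 and 43.4 CPM, and its log2 fold change of -0.66 ± 0.40 became -0.01 without control library 2. Cxcl13, which draws B cells through Cxcr5, was at 3.58, 4.84 and 7.80 against 5, 7.55 and 16.4 CPM (-0.83 ± 0.47, and -0.21 without control library 3).

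Cxcl16, a membrane-bound ligand, and its receptor Cxcr6, found on tissue-resident T cells, had values of opposite sign. Cxcl16 was at 38.4 ± 4.06 against 34.3 ± 6.92 CPM. Its log2 fold change was 0.16 ± 0.17 and 0.014 without control library 2, and 552 of its 3021 exonic bases overlap Zmynd15 on the other strand. Cxcr6 was at 12.2, 8.61 and 15.8 CPM under AKBA gel and at 21.4, 14.7 and 20.1 CPM under control gel. Its groups overlapped in AKBA library 3 and control library 2, and its log2 fold change was -0.62 ± 0.24 with an unadjusted edgeR p of 0.0358. That p passed 0.05, up to 0.109, without AKBA library 1 or 2 or control library 1 or 3. The T cell markers Cd2, Cd3d, Cd3e, Cd3g and Cd4 had a median log2 fold change of -0.27, with none at an unadjusted p under 0.05, and the list including Cd8a summed to 14.9 to 24.2 CPM under AKBA gel and 19.6 to 30.4 CPM under control gel. Its part in the value of Cxcr6 was not tested.

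The members higher at an unadjusted p under 0.05 were the epithelial ligand Ccl27a and receptors. Ccl27a, the keratinocyte chemokine that draws skin-homing T cells through Ccr10 (chromosome 4, 41769467 to 41774247), was at 15.6, 12.9 and 12 CPM under AKBA gel and at 10.3, 4.37 and 5.17 CPM under control gel. All AKBA libraries were above all control libraries, and control library 1 was the nearest to them. The means were 13.5 ± 1.87 and 6.61 ± 3.21 CPM, a 2.04-fold difference, with a log2 fold change of 1.03 ± 0.32 and an unadjusted p of 0.0129 in edgeR (adjusted p 0.334). In DESeq2 the adjusted p was 0.0728, and in the authors' deposited table it was 0.0641. These values belong to the row on chromosome 4. A near-identical copy on a scaffold outside the assembled chromosomes had 0 to 8 counts in a library, so reads could be split between copies. Ccl27b, also on chromosome 4, had 5, 13 and 1 counts under AKBA gel and 4, 0 and 2 under control gel. Of the exonic bases of the Ccl27a row on chromosome 4, 8 of 2377 overlap Il11ra1 on the other strand.

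Ccr10 was at 2.80, 2.92 and 2.68 CPM under AKBA gel and at 2.71, 1.57 and 2.06 CPM under control gel (log2 fold change 0.41 ± 0.26, unadjusted edgeR p 0.156). Control library 1 again lay inside the AKBA range. Ccl28, the other ligand of Ccr10, was at 0.945 ± 0.324 against 0.585 ± 0.381 CPM (0.68 ± 0.53). The ratio of Ccl27a to Ccr10 in FPKM was 4.06, 3.20 and 3.25 under AKBA gel and 2.75, 2.01 and 1.83 under control gel. Keratinocyte genes were mixed in the same libraries, with the differentiation keratin Krt10 at a log2 fold change of 0.95, Krt15 at 1.27 and Krt14 at -1.22, each with an unadjusted edgeR p under 0.05. The 6 genes summed to 42221 to 61884 CPM under AKBA gel and 41287 to 56127 CPM under control gel, and their part in the value of Ccl27a was not tested.

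Ccr4, a receptor of skin-homing T cells for Ccl17 and Ccl22, was at 3.68, 3.99 and 3.58 CPM under AKBA gel and at 3.05, 0.917 and 1.34 CPM under control gel. The groups did not overlap, but control library 1 was close to the AKBA libraries. The log2 fold change was 1.08 ± 0.42 with an unadjusted edgeR p of 0.033, which stayed under 0.05 without control library 1 and reached up to 0.0921 when any of the other 5 libraries was left out. Its ligand Ccl22 was at 4.32 ± 0.838 against 3.58 ± 0.481 CPM (0.27 ± 0.22), and Ccl17 had 1 to 6 counts in a library. In the list of Langerhans and dendritic cell genes, 3 of 5 values were positive and 2 negative. Cd207, which encodes langerin, was at 10.3, 12.5 and 7.24 CPM under AKBA gel and at 5.81, 4.58 and 2.83 CPM under control gel (log2 fold change 1.18, unadjusted edgeR p 0.00562). Epcam (0.40) also had an unadjusted p under 0.05, while Cd74 (0.15), Flt3 (-0.07) and Itgax (-0.09) did not, and the list summed to 600 to 864 CPM against 558 to 672 CPM. Of the 5 tested T cell markers, 4 had negative values and 1 a positive value, with a median log2 fold change of -0.27. The part of either list in the values of Ccr4 and Ccl22 was not tested.

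Ccr7, which guides dendritic cells and naive T cells to lymph nodes, went the other way from Ccr4. It was at 0.491, 0.744 and 0.469 CPM under AKBA gel and at 0.905, 1.48 and 1.10 CPM under control gel, with no overlap. Its log2 fold change was -1.04 ± 0.33 with an unadjusted edgeR p of 0.0154, which passed 0.05, up to 0.0639, without AKBA library 1 or 3 or control library 2. Its ligand Ccl21a was at 2.01, 8.56 and 7.11 against 9.76, 7.16 and 9.44 CPM (-0.58 ± 0.45, and -0.17 without AKBA library 1, which was the lowest). Ccl21a is counted mainly on a scaffold outside the assembled chromosomes, and its near-identical copies make this value uncertain. Its row on chromosome 4, below the filter, had 0, 0 and 2 counts under AKBA gel. Under control gel that row had 5, 5 and 7 counts, with no overlap in CPM. Ccl19, the other ligand, had at most 2 counts in a library. The lymphatic endothelial genes Lyve1, Prox1, Pdpn and Flt4 were all negative with a median log2 fold change of -0.54 and sums of 49.1 to 59.0 against 61.5 to 122 CPM, and their part in the value of Ccl21a was not tested.

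**Figure D5:**
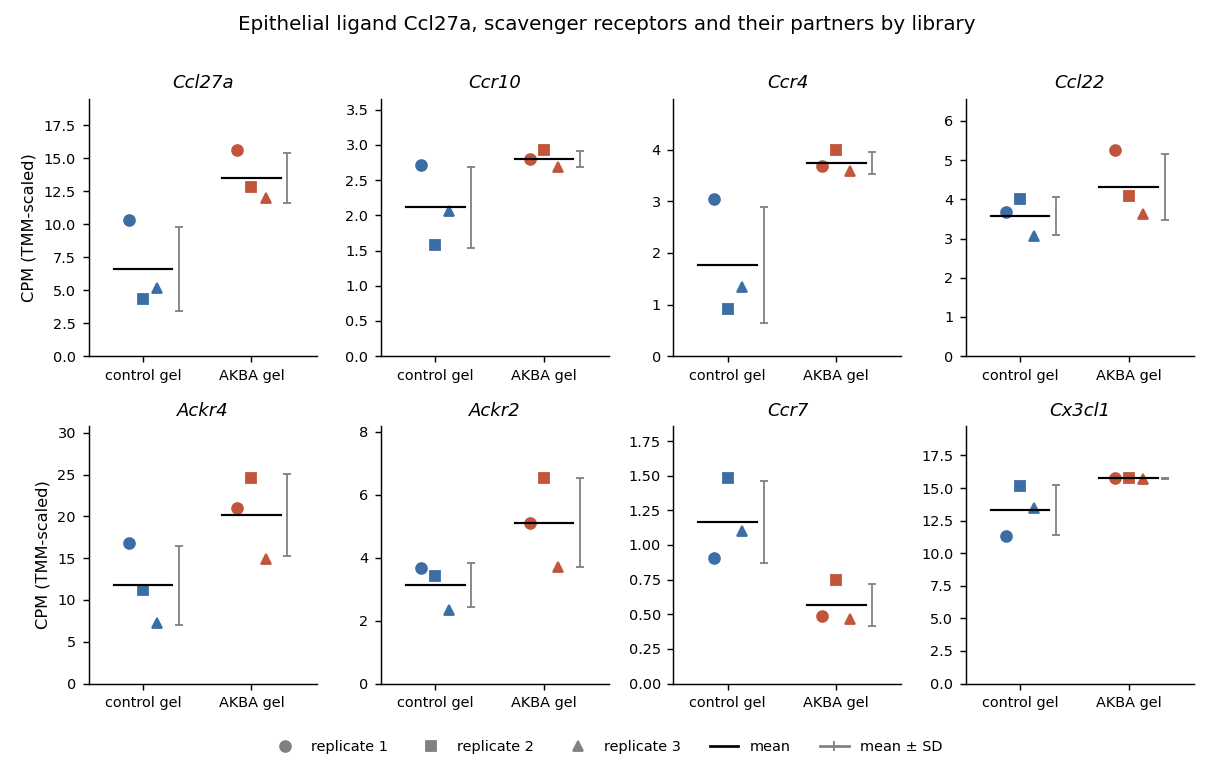
TMM-scaled CPM of Ccl27a, Ccr10, Ccr4, Ccl22, Ackr4, Ackr2, Ccr7 and Cx3cl1 in each library, with mean and SD. Ccl27a, Ccr4, Ackr2 and Cx3cl1 lie higher and Ccr7 lower under AKBA gel without overlap, and control library 1 is the control library nearest to the AKBA group for Ccl27a, Ccr10, Ccr4 and Ackr4.

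Of the atypical receptors, the pair that clears CC chemokines had positive values. Ackr2, which binds inflammatory CC ligands such as Ccl2, was at 5.10, 6.54 and 3.71 CPM under AKBA gel and at 3.67, 3.41 and 2.35 CPM under control gel. The groups were separated only by the gap between 3.71 and 3.67 CPM, and the log2 fold change was 0.70 ± 0.28 with an unadjusted edgeR p of 0.0393. Ackr4, which clears Ccl19, Ccl21 and Ccl25, was at 21.0, 24.6 and 14.9 against 16.8, 11.1 and 7.28 CPM, with overlap between AKBA library 3 and control library 1. Its log2 fold change was 0.78 ± 0.31 with an unadjusted edgeR p of 0.0383. Without AKBA library 1 or 2 or control library 2 or 3, the p of Ackr2 was up to 0.142 and that of Ackr4 up to 0.124. Of the 5380 exonic bases of Ackr4, 479 overlap Acad11 on the other strand, and whether strand was used in counting is not stated. Ackr1, found on venules and red cells, had -0.31 ± 0.18, and 361 of its 1405 exonic bases overlap Cadm3 on the same strand.

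Cx3cl1, the membrane-bound ligand of Cx3cr1, was at 15.7, 15.8 and 15.7 CPM under AKBA gel and at 11.3, 15.2 and 13.5 CPM under control gel. Its groups did not overlap, yet the log2 fold change of 0.24 ± 0.14 had an unadjusted edgeR p of 0.127. Cx3cr1 was at 2.54 ± 0.966 against 2.56 ± 1.01 CPM. Xcr1, a receptor of cross-presenting dendritic cells, had 0.30 ± 0.34, and its ligand Xcl1 had 4, 8 and 12 counts under AKBA gel and 6, 1 and 2 under control gel. The ligand Ccl20, which draws Langerhans cell precursors and T cells through Ccr6, had 0.68 ± 0.43, and Ccr6 had 0.10 ± 0.37.

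By position, the tested receptors on chromosome 9 had values of both signs, but they are spread along it. Cxcr5 (0.15) starts at 44511787 and Ccr4 at 114490316. Ccr9 (0.18) starts at 123678439, Cxcr6 (-0.62) at 123806475 and Xcr1 (0.30) at 123852315. Ccr1 (-1.24) starts at 123962124 and Ccr2 (-0.45) at 124101950. Cx3cr1 was at -0.00053. Of the 9 receptors tested on this chromosome, 5 had negative and 4 positive values. Ccr1 and Cxcr6 were among the former at an unadjusted edgeR p under 0.05, and Ccr4 was among the latter. The atypical receptors Ackr2 and Ackr4 lie on the same chromosome.

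Other genes of the pathway were read from the same edgeR fit. Of 7 related ligands and receptors outside the naming rule, 5 were tested, and Cmklr1, the receptor of chemerin, had an unadjusted p under 0.05 (log2 fold change -0.49, p 0.0226). Pf4, a platelet chemokine that macrophages also make, had -0.43 with an unadjusted p of 0.0534. Ppbp, the other platelet chemokine, was below the filter with 3, 3 and 3 counts under AKBA gel and 5, 17 and 11 under control gel. Of 33 genes that act below the receptors, 9 were lower and 0 higher at an unadjusted p under 0.05 (7.01% and 6.45% of all genes were), and 31 had negative values with a median of -0.27. The 9 were Lyn, Fgr, Jak3, Was, Vav1, Dock2, Prex1, Grk5 and Pik3r5, most of them known from leukocytes. Lyn, a kinase of the Src family, was at 23.4, 22.6 and 26.3 CPM under AKBA gel and at 35.3, 35.4 and 38.8 CPM under control gel (-0.60 ± 0.11, unadjusted p 0.000755). Pik3r5, a subunit of the lipid kinase that receptors coupled to G proteins engage, was at 11.1, 8.56 and 12.5 against 15.2, 19.1 and 17.2 CPM (-0.68 ± 0.17). None of the 33 passed after adjustment over all genes in edgeR. In the same fit the leukocyte gene Ptprc was at -0.48, and the macrophage and monocyte markers had a median of -0.43. The part of these markers in the values of the 33 genes was not tested.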

How the data were processed

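Messenger RNA was counted in 6 libraries. The authors deposited 1 table with whole-number counts and FPKM per library, and with their own log2 fold change, p-value and adjusted p-value per gene. Per the submitters' processing notes, the tools were CASAVA 1.8, RSEM and edgeR and the build was GRCm38. Their roles, the annotation release, any rounding of counts and strand use are not given. Per the labels' protocols, epidermis was taken off with Dispase II, and TRIzol and a TruSeq kit served for RNA and libraries.

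Counts were tested as deposited with edgeR 4.0.16 in R 4.3.3 (TMM scaling, default low-count filter with a minimum count of 10, 2-sided quasi-likelihood F test) over 17023 genes, with Benjamini-Hochberg adjustment over all of them and a threshold of 0.05. The fit was tested on simulated data with effects placed only in genes above a mean of 5 CPM. It was therefore not tested at the low levels of Cxcl1, Ccl2, Ccl12, Ccr1 and Ccr7. The share of placed effects that the fit recovered is not given here, so the absence of edgeR calls does not show that no gene changed. DESeq2 1.42.0 (Wald test) was an alternative, as were other scaling, no filter, a stricter filter (5 CPM in 3 libraries), a replicate block and each library left out. No library repeated another of its group, since chi-square per degree of freedom was at least 31.1. FPKM, which is per length, served for levels between genes. A standard error is the log2 fold change divided by the square root of F. GENCODE M21 (GRCm38) gave the positions.

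Genes were named if they were among the 12 highest by FPKM, had an unadjusted p under 0.05 or groups without overlap, had at least 20 counts in a library though below the filter, were marked in the authors' table, or are ligand or receptor partners of these. The other members are given by role, and some of them with their values, chosen after those were seen. The values of 1 member are not reported here, although counts over all members include it. The members and lists were chosen with earlier results of these data known.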

Additional observations from a re-analysis of the deposited data

How the results depend on the processing

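The counts of members at an adjusted p under 0.05 in edgeR were 0 lower and 0 higher under every edgeR alternative, including each library left out (0 to 0), while DESeq2 called 2 lower, Cxcl1 (log2 fold change -2.57) and Ccr1 (-1.25). At an unadjusted p, 13 members were lower and 4 higher without a low-count filter (64 members tested, median log2 fold change -0.30). With the stricter filter 2 were lower and 2 higher (20 tested, median -0.36). The shares of all genes at an unadjusted p, or without overlap, are not given here for the alternative settings. With each library left out, 7 to 9 members were lower and 1 to 5 higher, and the median was -0.27 to -0.015. Equal replicate numbers did not pair the libraries (correlations of deviations 0.072, 0.019 and -0.33), and 1 of the 3 AKBA libraries correlated best with its own number. With the replicate block, 10 members were lower and 4 higher at an unadjusted p, 0 after adjustment, and the median was -0.13. Fold changes near 0 reversed sign. Ccl5 (left-out range -0.23 to 0.55) became 0.0025 without the filter, 0.074 with the replicate block, and 0.16, 0.05 and 0.55 without AKBA replicate 1, AKBA replicate 3 and control replicate 1. Ccl11 (-0.11 to 0.18) became -0.11 without AKBA replicate 2 and -0.06 without control replicate 2, Ccl3 (-0.27 to 0.23) 0.23 without AKBA replicate 2 and 0.05 without control replicate 1, and Ackr3 (-0.28 to 0.19) 0.19 without AKBA replicate 3. The causes were not tested. Groups that do not overlap numbered 6 lower and 3 higher with DESeq2 size factors, and 7 and 4 with column totals only. Depth limits the 20 rows below the filter, of which Cxcl5, Ccr3 and Ccl4 had at least 20 counts in a library.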
